A study of Mus musculus with 6 samples.

Results

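Collagens are the triple-helical proteins of the extracellular matrix, and each alpha chain is encoded by a gene of its own. The genes described here are all those whose symbol has the form Col, a type number, a and a chain number. This set was chosen with earlier results of these data known. The arrays read 42 such genes with 82 probe sets, out of 18194 genes that had 1 symbol on a probe set. They comprise 11 chains of fibrillar collagens, 8 of basement membrane collagens (types IV, XV and XVIII) and 23 of other types. Where a gene had several probe sets, the one with the highest mean over all arrays stood for it.

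Expression was measured on 6 Affymetrix arrays of colon tumours from CBA/C57BL/6 mice. On 3 arrays the mice carried a human IL8 transgene, and 3 arrays came from wild type mice, called control. Human IL8 (CXCL8) is a chemokine that draws in neutrophils. The comparison asks how tumours with the transgene differ from those without it. All 6 animals are labelled male. The labels of the transgenic samples also hold the word control, and groups follow the titles and genotypes. The promoter of the transgene, the age of the mice, the way the tumours arose and whether an array holds 1 tumour or a pool are not stated in the labels used here. P-values therefore measure only the spread among these 6 samples. No probe set was annotated to the transgene, and its level was not analysed here.

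Fibrillar collagens of types I, III and V assemble into the fibres of connective tissue and are made mainly by fibroblasts. Type IV chains form the network of basement membranes, and types XV and XVIII are found at basement membrane zones. Type VI forms beaded filaments around cells, fibril-associated types XII and XVI decorate the fibrils, and types XVII and XXIII span the cell membrane. In colon tumours, collagens are a large part of the stroma that surrounds the malignant glands.

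Several arrays stood apart or went against their labels. Xist, the RNA of the inactive X chromosome, was at 12.89, 12.27 and 12.78 on the log2 scale on transgenic arrays 1, 2 and 3, against 2.33, 2.64 and 2.44 on control arrays 1, 2 and 3. Eif2s3y, a gene of the Y chromosome, was at 2.39, 2.71 and 2.49 on the transgenic arrays and at 10.06, 9.99 and 10.22 on the control arrays. The transgene and this difference in sex-linked RNA cannot be told apart. On transgenic array 2, genes of stratified squamous epithelium were high: Krtdap was at 12.31 there, while no other array exceeded 2.62. On transgenic array 1 the Gapdh probe set at the 3′ end exceeded that at the 5′ end by 0.71, less than the 0.87 to 0.96 of the other arrays. The part of these features in the collagen values was not tested. All 10 colon epithelium markers were tested, with a summed level of 16.18 to 16.28 on transgenic and 15.95 to 16.23 on control arrays. A summed level is the log2 of the sum of the unlogged values of a list's genes.

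Testing was limited to probe sets that reached a log2 value of 4, called the detection level here, on 3 or more of the 6 arrays. Of the 42 collagen genes, 20 met this, with 7 of 11 fibrillar, 4 of 8 basement membrane and 9 of 23 other chains. Col23a1 met it through control arrays alone, and no gene through transgenic arrays alone. The 20 genes are therefore a selected set, and counts and medians over them are descriptions.

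Most of the 20 collagen genes were lower in the tumours with the transgene, and none passed the test. The difference (transgenic minus control, log2) was negative for 18 of 20 genes, where 53.2% of all probe sets tested were negative. Its median was -0.65 over the collagen genes and -0.02 over all 19310 probe sets tested. With limma and Benjamini-Hochberg adjustment over all probe sets, 0 of 20 collagen genes had an adjusted p under 0.05, where 0.0570% of all probe sets did. Adjusted p of the collagen genes ran from 0.779 to 0.998 with limma. At an unadjusted p under 0.05, 4 collagen genes were lower (Col18a1, Col6a4, Col4a5 and Col23a1) against 3.29% of all probe sets, and 1 was higher (Col8a1) against 2.22%. All 3 transgenic arrays lay below all 3 control arrays for 7 of 20 genes, against 6.31% of all probe sets, and above them for 1 of 20, against 4.61%. Col23a1, whose direction was fixed by the filter, is in both counts of lower genes. With 3 arrays against 3, an exact two-sided permutation test of a gene cannot go below 0.10. The 5 genes at an unadjusted p under 0.05 became 8 without transgenic array 2, 3 without control array 1 and 3 without control array 2. The shares of all probe sets in these smaller fits are not given here. In bulk tumour RNA, fewer cells of a type and less RNA per cell cannot be told apart.

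**Figure D1:**
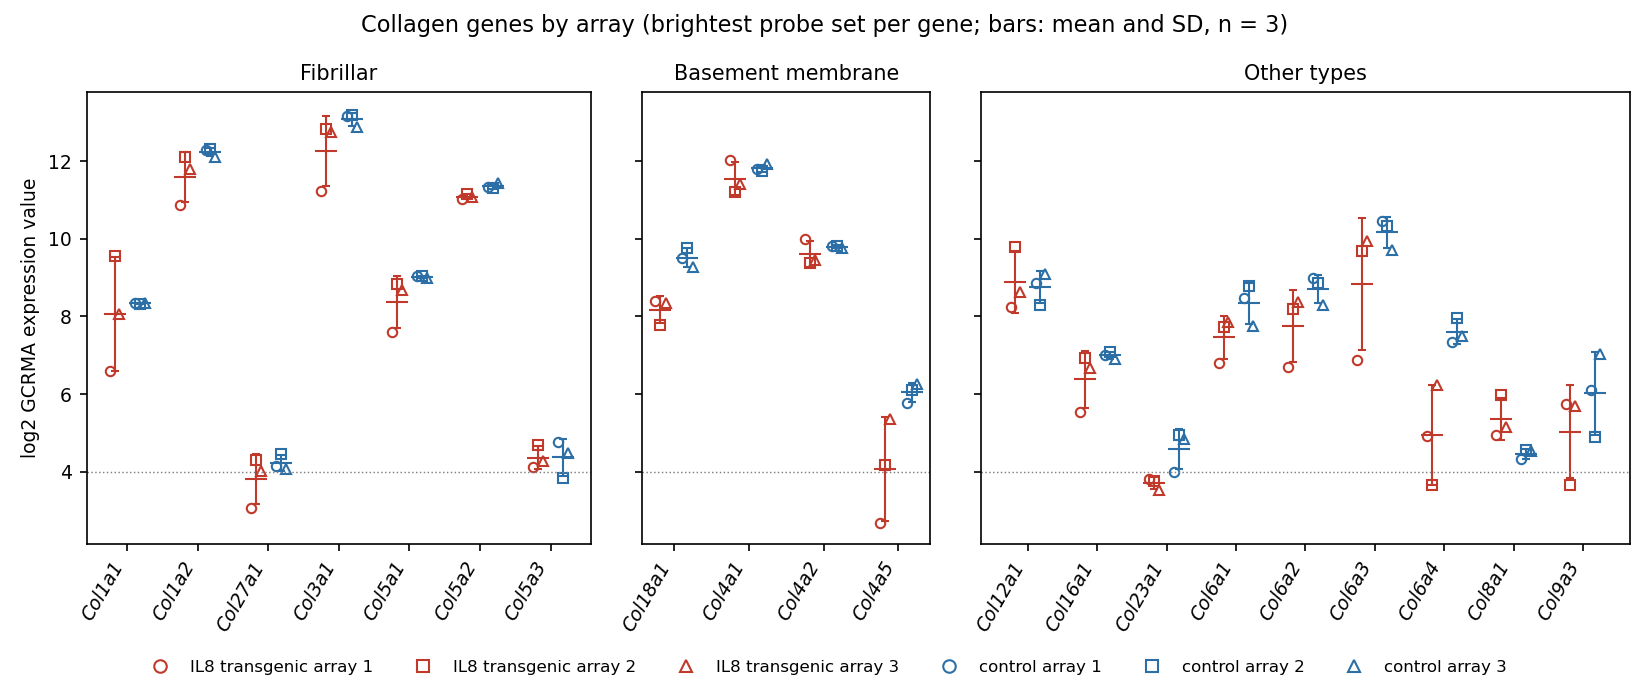
Log2 GCRMA values of the 20 collagen genes that were tested, with the 3 transgenic arrays (red) left of the 3 control arrays (blue), horizontal bars for the mean and error bars for the SD (n = 3). The dotted line marks the detection level of 4, and values of different genes are not comparable because each comes from its own probe set. The control points of Col1a1, Col5a1 and Col4a2 almost coincide, while transgenic array 1 (circle) lies far below the others for Col1a1, Col3a1 and Col6a3.

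The control arrays were close together and the transgenic arrays were not. The SD among transgenic arrays was larger than among control arrays for 17 of 20 collagen genes, 85% against 69.7% of all probe sets tested. The median SD of the collagen genes was 0.66 in transgenic and 0.22 in control tumours, and over all probe sets it was 0.31 in transgenic and 0.20 in control tumours. Transgenic array 1 was the lowest of the 6 arrays for 12 of 20 collagen genes, 60% against 24.6% of all probe sets. On transgenic arrays 1, 2 and 3, 17, 15 and 19 of the 20 genes lay below the mean of the control arrays. Of all probe sets tested, 50.5%, 54.4% and 50.6% lay below it on these arrays. The collagen genes' median deviation from the control mean was -1.26 for transgenic array 1, -0.34 for array 2 and -0.32 for array 3. It was between -0.03 and 0.08 on the control arrays. Over all probe sets tested, the median deviation was -0.0047, -0.049 and -0.0025 on transgenic arrays 1, 2 and 3.

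**Figure D2:**
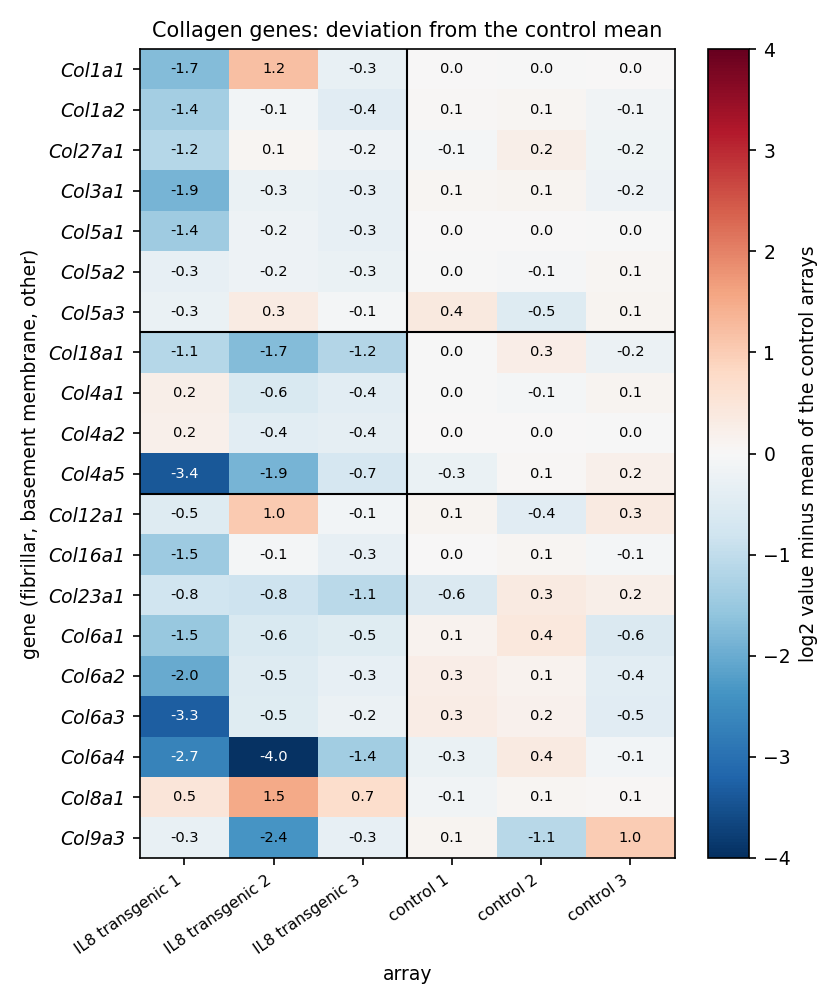
Deviation of each tested collagen gene (rows, by class) on each array (columns) from the mean of the 3 control arrays, in log2 units, blue for lower and red for higher. Transgenic array 1 is low for most fibrillar and type VI chains, and transgenic array 2 is the lowest for Col18a1, Col6a4 and Col9a3, among others. Col18a1, Col23a1, Col6a4 and Col4a5 are blue on all 3 transgenic arrays. So are Col1a2, Col3a1, Col5a1, Col5a2, Col16a1, Col6a1, Col6a2, Col6a3 and Col9a3.

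Among the fibrillar collagens, the difference was negative for all 7 tested genes, with a median of -0.43, and its size was set largely by transgenic array 1. Col3a1, the chain of type III collagen, was at 11.23, 12.83 and 12.76 on transgenic arrays and at 13.17, 13.19 and 12.88 on control arrays. The groups did not overlap, but transgenic array 1 lay more than 1 unit below every other array. The difference was -0.81 ± 0.44 (SE of the fit) and -0.29 without transgenic array 1. Col1a2, the alpha 2 chain of type I, was at 10.88, 12.12 and 11.80 on transgenic arrays and at 12.29, 12.32 and 12.11 on control arrays. Transgenic array 2 reached the range of the control arrays, and the difference was -0.64 ± 0.33 with all arrays and -0.28 without transgenic array 1. Col1a1, the alpha 1 chain that joins Col1a2 in the type I trimer, was at 6.604, 9.55 and 8.05 on transgenic arrays and at 8.35, 8.33 and 8.34 on control arrays. Here the transgenic arrays lay on both sides of the control arrays, the SD was 1.47 in transgenic and 0.01 in control tumours, and the difference of -0.27 ± 0.69 became 0.46 when transgenic array 1 was left out and -1.01 when array 2 was.

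Type V chains, which nucleate the fibrils, differed by -0.65 to -0.0047, and none of the 3 passed. Col5a2 was at 11.03, 11.15 and 11.08 on transgenic arrays and at 11.33, 11.31 and 11.43 on control arrays. The groups did not overlap, and the difference of -0.27 ± 0.13 stayed between -0.30 and -0.23 when any 1 array was left out. Col5a1 was at 7.61, 8.83 and 8.68 on transgenic arrays and at 9.04, 9.04 and 8.99 on control arrays. All transgenic arrays lay below the control arrays, array 1 by the most, and the difference was -0.65 ± 0.33 with all arrays and -0.27 without transgenic array 1. Col5a3 was near the detection level, at 4.11, 4.69 and 4.28 on transgenic and 4.76, 3.85 and 4.49 on control arrays, with overlapping groups and a difference of -0.0047 ± 0.29. Col27a1, a fibrillar chain of cartilage, ran from 3.08 to 4.30 in transgenic and from 4.07 to 4.46 in control tumours. Its difference was -0.43, or -0.066 without transgenic array 1 and -0.12 with values under 4 set to 4. The other 4 fibrillar chains, Col2a1, Col11a1, Col11a2 and Col24a1, stayed at 2.77 or less on every array.

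The reference places Col3a1 and Col5a2 next to each other on chromosome 1. Transgenic array 1 was the lowest array for both, by 1.85 under the control mean for Col3a1 and by 0.32 for Col5a2. The fibrillar genes with a further tested probe set were Col1a1, Col1a2, Col3a1, Col5a1 and Col5a2. Each had the same sign and the same lowest array on both probe sets. The lack of overlap of Col3a1, Col5a1 and Col5a2 was not repeated, since the groups overlapped in their further probe sets. Transgenic array 2 was the highest array in the further probe sets of Col1a2 (11.15), Col3a1 (9.66) and Col5a1 (7.90). The 2 probe sets of Col3a1 differed by -1.20 and -0.81 and those of Col1a1 by -0.73 and -0.27.

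In the basement membrane class, Col18a1 had the smallest p of all collagen genes. Col4a1 and Col4a2 differed little on their brightest probe sets, while a second Col4a1 probe set differed more. Col18a1 encodes the type XVIII chain, whose released C-terminal fragment is endostatin, an inhibitor of vessel growth. It was at 8.39, 7.78 and 8.36 on transgenic arrays and at 9.50, 9.77 and 9.28 on control arrays. Every transgenic array lay below every control array, and the means were 8.17 ± 0.34 in transgenic and 9.52 ± 0.25 in control tumours (SD, n = 3 each). The difference was -1.34 ± 0.23, a 2.54-fold lower level, with an unadjusted p of 0.00101 and an adjusted p of 0.779 with limma. A second Col18a1 probe set was at 7.45, 8.103 and 8.16 on transgenic arrays and at 9.43, 9.46 and 9.24 on control arrays, a difference of -1.47 ± 0.23. Leaving out 1 array moved the difference of the first probe set only between -1.46 and -1.14.

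Col18a1 has 2 windows in the RefSeq promoter table (GRCm38.p6), each from 250 bases before to 50 bases after an annotated start, both on the minus strand. The probe sets were not matched to either start. The windows are printed because this gene had the smallest p, with 3 short promoter motifs in capitals where they occur on either strand. These are CCAAT, the GC box GGGCGG, and the TATA motif TATAAA. No matches overlap here. The upstream window, chr10:77166481-77166780, holds 1 CCAAT match and 3 GC boxes, and the downstream window, chr10:77113656-77113955, holds none of the 3 motifs.
Col18a1 upstream window: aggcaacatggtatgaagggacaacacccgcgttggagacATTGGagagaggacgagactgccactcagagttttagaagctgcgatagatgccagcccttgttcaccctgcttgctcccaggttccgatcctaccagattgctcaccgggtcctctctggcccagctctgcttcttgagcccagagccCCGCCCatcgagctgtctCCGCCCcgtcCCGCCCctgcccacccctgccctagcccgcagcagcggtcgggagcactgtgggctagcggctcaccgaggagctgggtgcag
Col18a1 downstream window: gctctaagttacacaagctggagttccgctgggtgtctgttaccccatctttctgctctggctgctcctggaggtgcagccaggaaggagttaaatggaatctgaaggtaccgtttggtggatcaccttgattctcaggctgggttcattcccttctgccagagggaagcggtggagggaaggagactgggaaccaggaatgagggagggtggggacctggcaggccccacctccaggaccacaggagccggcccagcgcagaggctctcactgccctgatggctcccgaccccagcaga

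The type IV chains Col4a1 and Col4a2, which form the common type IV trimer, moved in the same order over the transgenic arrays. Col4a1 was at 12.04, 11.21 and 11.40 on transgenic arrays and at 11.79, 11.74 and 11.92 on control arrays. Col4a2 was at 10.003, 9.38 and 9.45 on transgenic arrays and at 9.83, 9.81 and 9.77 on control arrays. For both genes transgenic array 1 was the highest of all 6 arrays and transgenic array 2 the lowest, so that the groups overlapped. The difference was -0.27 ± 0.24 for Col4a1 and -0.19 ± 0.20 for Col4a2, and its size rested on single arrays. For Col4a1 it was -0.51 without transgenic array 1 and -0.096 without array 2. For Col4a2 leaving out array 1 gave -0.39, array 2 -0.076 and array 3 -0.11. A second Col4a1 probe set had 7.91, 6.89 and 7.56 on transgenic arrays and 8.09, 8.14 and 8.64 on control arrays, with no overlap and a difference of -0.83 ± 0.30, larger than that of the first. Its unadjusted p was 0.032 and its adjusted p 0.806 with limma.

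Col4a1 and Col4a2 are neighbours on chromosome 8 and are transcribed in opposite directions from a shared start region, which is why their windows are shown together. The Col4a1 window is chr8:11312777-11313076 on the minus strand and the Col4a2 window chr8:11312555-11312854 on the plus strand (RefSeq, GRCm38.p6). The 78 bases that lie in both windows, as reverse complements of each other, are in capitals. Each window holds 1 CCAAT match, and GC boxes number 1 in the Col4a1 and 3 in the Col4a2 window, with no TATAAA.
Col4a1: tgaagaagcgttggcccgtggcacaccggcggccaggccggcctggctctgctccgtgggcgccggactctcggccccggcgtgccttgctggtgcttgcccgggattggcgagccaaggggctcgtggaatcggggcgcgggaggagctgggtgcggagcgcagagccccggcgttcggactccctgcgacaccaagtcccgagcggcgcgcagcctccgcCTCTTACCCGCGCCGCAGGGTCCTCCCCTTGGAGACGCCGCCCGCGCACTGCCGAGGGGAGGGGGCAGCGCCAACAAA
Col4a2: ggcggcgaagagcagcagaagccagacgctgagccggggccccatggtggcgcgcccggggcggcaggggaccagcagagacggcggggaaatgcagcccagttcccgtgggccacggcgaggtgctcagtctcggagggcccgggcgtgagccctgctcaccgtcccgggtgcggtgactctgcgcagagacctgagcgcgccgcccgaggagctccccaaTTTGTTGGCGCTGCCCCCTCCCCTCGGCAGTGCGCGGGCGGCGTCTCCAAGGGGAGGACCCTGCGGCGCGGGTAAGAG

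Promoter windows were found for 33 of the 42 genes, 36 windows in all. A GC box lay in 22 of 36 collagen windows, 61.1%, against 35.7% of all 32851 windows in the table. CCAAT lay in 13 of 36, 36.1% against 37.4%, and TATAAA in 5 of 36, 13.9% against 13.6%. The genes without a promoter window, whose sequence was therefore not read, were Col1a1, Col2a1, Col5a2, Col4a3, Col12a1, Col14a1, Col22a1, Col26a1 and Col9a3. A match describes these letters only.

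Col4a5, an X-linked chain of the type IV network of specialised basement membranes, was at 2.67, 4.17 and 5.36 on transgenic arrays and at 5.78, 6.09 and 6.26 on control arrays. The groups did not overlap, and transgenic array 3 lay nearest to the control arrays. The difference was -1.98 ± 0.64, with an unadjusted p of 0.0207 and an adjusted p of 0.806 with limma. Leaving out transgenic array 1 gave -1.28 and leaving out array 3 gave -2.62, and the difference was -1.53 with values under 4 set to 4. Xist was high on every transgenic array, and for this X-linked gene the sex of the tissue and the transgene cannot be told apart. A further Col4a5 probe set stayed at 3.23 or less and was not tested. Its neighbour Col4a6, transcribed the other way, stayed at 2.26 or less on every array, as Col4a3 and Col4a4 did at 2.50 or less. Col15a1, the type XV chain of vessel and muscle basement membranes, was at 3.02, 3.72 and 2.94 on transgenic arrays and at 3.50, 2.92 and 3.13 on control arrays and was not tested.

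**Figure D3:**
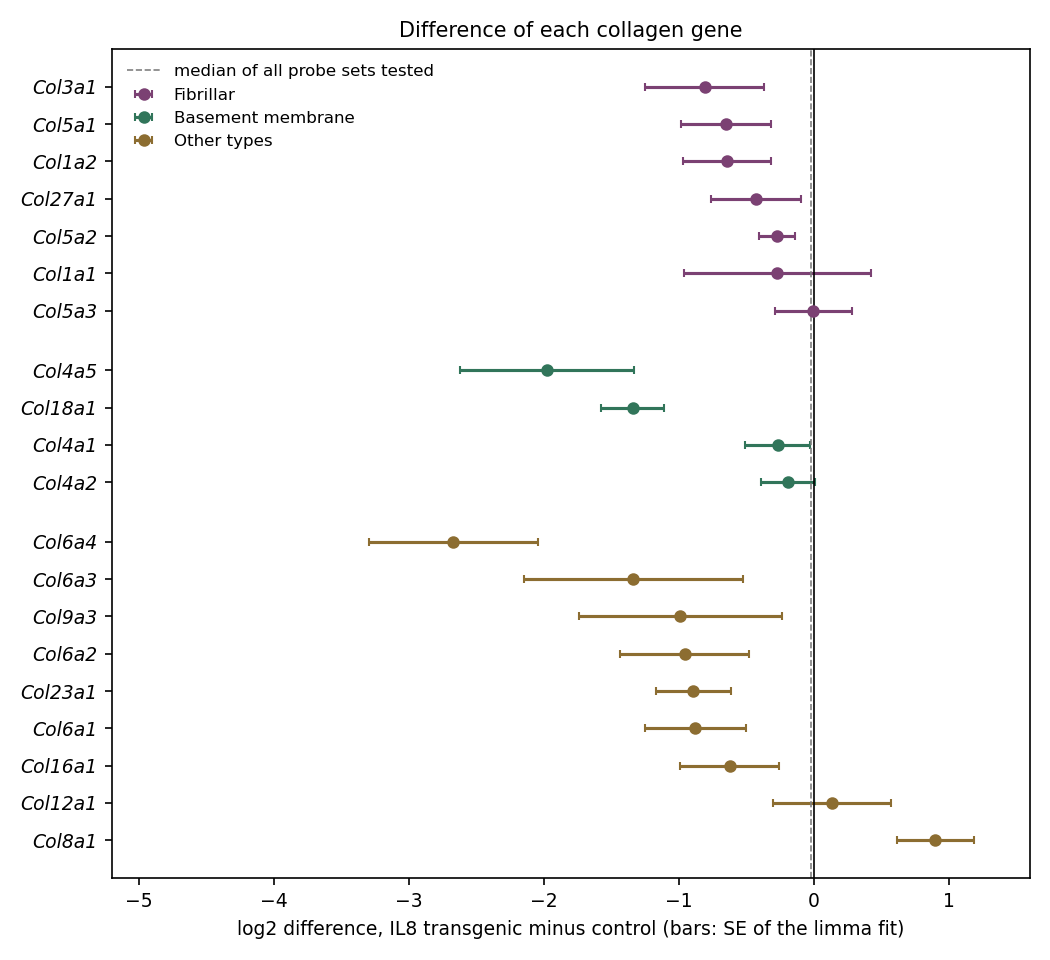
Log2 difference of each tested collagen gene, transgenic minus control, with the SE of the limma fit, grouped by class. The points of 18 genes lie left of 0, Col6a4 (-2.67) and Col4a5 (-1.98) the farthest, and Col8a1 (0.90) lies farthest right; the dashed line is the median of all probe sets tested (-0.02).

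The chains of type VI collagen, which forms beaded filaments, differed by -0.88 to -2.67, with 2 patterns among the arrays. Col6a1 was at 6.81, 7.72 and 7.85 on transgenic arrays and at 8.48, 8.78 and 7.76 on control arrays. Col6a2, its neighbour on chromosome 10, was at 6.69, 8.19 and 8.38 on transgenic arrays and at 8.99, 8.85 and 8.29 on control arrays. Col6a3, the long alpha 3 chain of the same trimer, was at 6.87, 9.69 and 9.93 on transgenic arrays and at 10.46, 10.33 and 9.71 on control arrays. In all 3 chains transgenic array 1 was the lowest array, transgenic array 3 lay above control array 3, and the groups overlapped. The difference was -0.88 ± 0.38 for Col6a1, -0.96 ± 0.48 for Col6a2 and -1.34 ± 0.81 for Col6a3. Without transgenic array 1 it was -0.55 for Col6a1, -0.42 for Col6a2 and -0.36 for Col6a3. A further Col6a2 probe set was at 3.70, 4.08 and 4.04 on transgenic arrays and at 4.82, 4.79 and 4.22 on control arrays, with no overlap and a difference of -0.67 ± 0.22.

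Col6a4, an alternative type VI chain whose human counterpart is disrupted, had the largest difference of the 20 genes. It was at 4.92, 3.66 and 6.23 on transgenic arrays and at 7.35, 7.97 and 7.51 on control arrays. Its lowest array was transgenic array 2, unlike the other type VI chains, and the groups did not overlap. The difference was -2.67 ± 0.62, with an unadjusted p of 0.00465 and an adjusted p of 0.806 with limma. Leaving out 1 array gave values from -3.32 to -2.03, and the difference was -2.56 with values under 4 set to 4. A further Col6a4 probe set stayed at 2.44 or less on every array, so that the difference rests on 1 probe set. Its neighbour Col6a5 stayed at 2.89 or less. The Col6a4 promoter window, chr9:106096642-106096941 on the minus strand (RefSeq, GRCm38.p6), is shown because of the size of this difference, with motif letters in capitals as for Col18a1; it holds 1 CCAAT match and 2 GC boxes.
Col6a4: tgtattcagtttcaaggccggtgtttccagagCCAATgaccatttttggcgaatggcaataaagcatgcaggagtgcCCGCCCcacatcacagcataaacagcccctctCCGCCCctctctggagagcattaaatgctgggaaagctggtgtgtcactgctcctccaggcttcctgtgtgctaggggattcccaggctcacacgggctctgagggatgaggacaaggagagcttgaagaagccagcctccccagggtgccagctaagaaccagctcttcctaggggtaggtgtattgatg

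Among the remaining types, Col8a1 was higher and Col23a1 lower in the tumours with the transgene, and neither passed. Col8a1, a short chain that forms lattices in vessel walls, was at 4.95, 5.98 and 5.16 on transgenic arrays and at 4.32, 4.55 and 4.53 on control arrays. The groups did not overlap, and transgenic array 2 was the highest. The difference was 0.90 ± 0.29, with an unadjusted p of 0.0186 and an adjusted p of 0.806 with limma, and it was 0.59 without transgenic array 2. A further Col8a1 probe set, not tested, was at 3.41, 4.42 and 3.79 on transgenic arrays and at 3.28, 3.35 and 3.48 on control arrays. Col23a1, a transmembrane collagen, was at 3.81, 3.76 and 3.52 on transgenic arrays and at 4.005, 4.94 and 4.84 on control arrays. Every transgenic array lay under the detection level of 4 on this probe set. With values under 4 set to 4, its level was at least 1.51-fold lower, a bound that depends on the detection level. The unadjusted p was 0.0169 and the adjusted p 0.806 with limma. Since Col23a1 was tested only because its control arrays reached 4, its direction was fixed by the filter and its p is not support. A further Col23a1 probe set was at 4.08, 3.40 and 3.50 on transgenic arrays and at 3.70, 4.53 and 4.98 on control arrays. Its groups overlapped, transgenic array 1 lay above the detection level, and the difference was -0.74 ± 0.36.

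Col12a1, a fibril-associated chain, was at 8.24, 9.79 and 8.63 on transgenic arrays and at 8.85, 8.31 and 9.10 on control arrays. The groups overlapped, and the difference of 0.13 ± 0.44 became -0.32 when transgenic array 2 was left out and 0.46 when array 1 was. Col16a1, also fibril-associated, was at 5.53, 6.92 and 6.68 on transgenic arrays and at 7.004, 7.09 and 6.91 on control arrays, and differed by -0.62 ± 0.37. Without transgenic array 1 this was -0.20. Col9a3, a chain of the cartilage collagen type IX, varied in both groups, from 3.64 to 5.73 in transgenic and from 4.90 to 7.04 in control tumours. Its difference was -0.99 ± 0.75. With 1 array left out it ran from -1.55 (control array 2) to -0.30 (transgenic array 2), with -0.48 for control array 3.

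Of the 22 genes that were not tested, 19 stayed under 4 on every array. The other 3 were Col17a1, Col7a1 and Col14a1. Col17a1 encodes the transmembrane collagen of hemidesmosomes, which fix basal keratinocytes to the basement membrane, and Col7a1 the anchoring fibrils beneath them. Col17a1 was at 2.15, 8.99 and 2.28 on transgenic arrays and at 2.44, 2.83 and 2.29 on control arrays. Col7a1 was at 3.74, 6.48 and 3.71 on transgenic arrays and at 3.68, 3.39 and 3.70 on control arrays. Both were thus above 4 on transgenic array 2 and on no other array, the array on which the squamous genes Krtdap (12.31), Krt5 (10.27) and Trp63 (8.97) were high. Krt5, the keratin of basal layers, did not exceed 2.86 elsewhere, nor Trp63, a transcription factor of basal squamous cells, 2.29. Col14a1, a fibril-associated chain, reached 4.08 on transgenic array 1 and was lower elsewhere.

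Proteins that work with collagens were read from lists by role, and 0 genes of any of these lists passed with limma. Of all probe sets tested, 53.2% were lower, and 3.29% were lower at an unadjusted p under 0.05. Of 15 tested laminins, nidogens and other basement membrane partners, 13 were lower, with a median of -0.42, and 7 had groups that did not overlap, all lower (6.31% of all probe sets). At an unadjusted p under 0.05, 4 were lower and 0 higher, against 3.29% lower and 2.22% higher of all probe sets. Lama1, a laminin alpha chain, was at 4.01, 4.34 and 5.10 on transgenic and 5.62, 6.03 and 6.25 on control arrays, a difference of -1.48 ± 0.32. Lamb1, a laminin beta chain, differed by -0.65 ± 0.21, the collagen-binding glycoprotein gene Sparc by -0.59 ± 0.20 and Pxdn, which crosslinks type IV collagen, by -0.57 ± 0.22. The list's median deviation was -0.34, -0.35 and -0.41 on transgenic arrays 1, 2 and 3, while single genes varied among these arrays, such as Lama5, a laminin alpha chain, at 7.94, 5.31 and 6.78 on transgenic and 7.29, 8.25 and 7.54 on control arrays.

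Enzymes and chaperones that fold and modify collagen chains were lower in 9 of 11 tested genes, against 53.2% of all probe sets, with a median of -0.21. Of them, 2 were lower at an unadjusted p under 0.05, against 3.29% of all probe sets. Colgalt1, which adds galactose to hydroxylysine, differed by -0.71 ± 0.26, and P3h1, a prolyl 3-hydroxylase, by -0.44 ± 0.17. Serpinh1 (HSP47), the collagen chaperone of the endoplasmic reticulum, was at 7.77, 9.18 and 9.55 on transgenic and 9.90, 9.86 and 9.61 on control arrays. It differed by -0.96 ± 0.46, with transgenic array 1 the lowest as for 6 of 7 fibrillar chains, and Plod3, a lysyl hydroxylase, by -0.41 ± 0.33. Of 4 tested genes of procollagen cleavage and crosslinking, 3 were lower (median -0.21) and 0 had an unadjusted p under 0.05. Pcolce, an enhancer of C-propeptide cleavage, differed by -0.99 ± 0.70, with 5.83 on transgenic array 1 and at least 8.09 on the others. Lox, the lysyl oxidase that crosslinks fibrils, differed by 0.69 ± 0.61 with 9.34 on that array, Bmp1, the C-proteinase, by -0.32 ± 0.29 and Loxl1 by -0.10 ± 0.32.

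Small leucine-rich proteoglycans, which bind fibrils, were lower in 4 of 5 tested genes (median -0.33), against 53.2% of all probe sets. At an unadjusted p under 0.05 with limma, 3.29% of all probe sets were lower. These shares also stand beside the counts of the next lists. Bgn (biglycan), an X-linked gene, was at 9.75, 9.64 and 9.83 on transgenic and 10.33, 10.32 and 10.43 on control arrays. Its difference was -0.62 ± 0.14 with no overlap, and it had the 1 unadjusted p under 0.05 of this list. As for Col4a5, the sex of the tissue and the transgene cannot be told apart for Bgn. Dcn (decorin) differed by -0.33 ± 0.15, Lum (lumican) by -0.91 ± 1.10 and Prelp by 0.30 ± 0.76. Of 5 tested collagenases and gelatinases, 3 were lower (median -0.36), and 1 had an unadjusted p under 0.05 (Mmp2). Mmp2, the gelatinase A gene, was at 8.59, 8.06 and 8.38 on transgenic and 8.92, 9.22 and 9.22 on control arrays, a difference of -0.78 ± 0.19. Mmp9 differed by -1.95 ± 0.92, the collagenase gene Mmp13 by 0.75 ± 0.43 and the membrane-bound Mmp14 by -0.36 ± 0.25. Collagen receptors were lower in 4 of 5 tested genes (median -0.06), with 0 at an unadjusted p under 0.05. The lower genes include Ddr1, which differed by only -0.00016. Itga1, an integrin subunit, differed by 0.28 ± 0.19. It was the 1 receptor whose groups did not overlap, and it was higher, against 4.61% of all probe sets. The discoidin receptor Ddr2 differed by -0.81 ± 0.55, the endocytic receptor Mrc2 by -0.52 ± 0.28 and the integrin subunit Itgb1 by -0.06 ± 0.23.

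**Figure D4:**
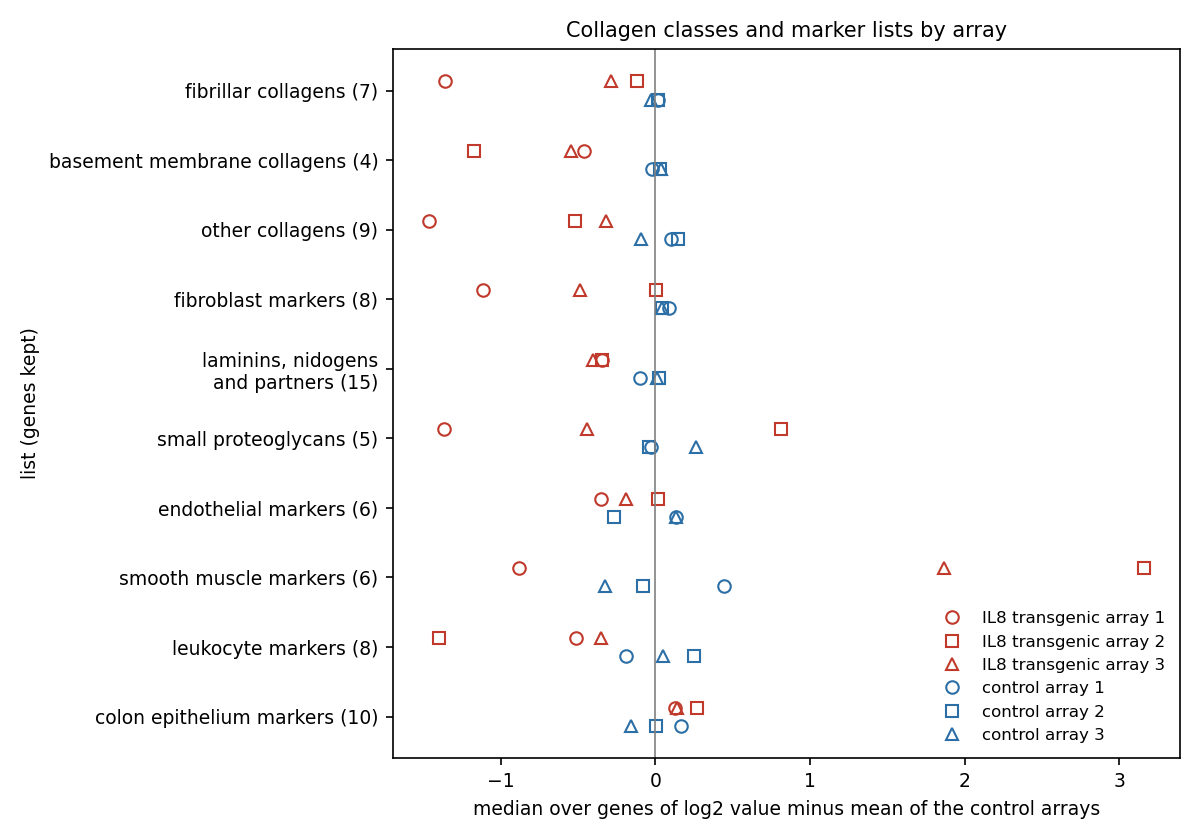
Median over the genes of a list of the log2 value minus the control mean, with each transgenic array (red) drawn above each control array (blue), for the 3 collagen classes, the laminin and small proteoglycan lists and cell type marker lists (number of tested genes in parentheses). Transgenic array 1 is low for the fibrillar collagens (-1.36), fibroblast markers (-1.12) and small proteoglycans (-1.37), while smooth muscle markers are high on transgenic arrays 2 (3.16) and 3 (1.87).

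Markers of other cell types varied with the arrays as well. Of all probe sets tested, 53.2% were lower and 46.8% higher. Of 8 tested fibroblast markers, 7 were lower, with a median deviation of -1.12, 0.0028 and -0.49 on transgenic arrays 1, 2 and 3, against -1.36, -0.12 and -0.29 for the fibrillar collagens. The summed level of the 10 fibroblast markers was 12.61 to 13.06 on transgenic and 13.07 to 13.27 on control arrays, and 2 of them (Fap and Mfap5) stayed under 4 on every array. The PDGF receptor gene Pdgfra had the largest difference of the tested markers of this list, -1.24 ± 0.36, and was lowest on transgenic array 2. Postn, the 1 tested marker that was higher, differed by 0.05 ± 0.36. Smooth muscle markers were higher in all 6 tested genes, with a summed level of 11.01 to 13.40 on transgenic and 11.66 to 11.84 on control arrays, and they were lowest on transgenic array 1 with a median deviation of -0.88. Desmin (Des) was at 3.03, 8.41 and 7.04 on transgenic and 3.85, 3.14 and 3.06 on control arrays.

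Leukocyte markers were lower in all 8 tested genes, against 53.2% of all probe sets, with a median of -0.81 (-0.65 for the 20 collagen genes). At an unadjusted p under 0.05 with limma, 4 were lower, against 3.29% of all probe sets. The groups of 4 did not overlap, all lower, against 6.31% of all probe sets. The summed level of the leukocyte markers was 11.29 to 12.16 on transgenic and 12.32 to 12.68 on control arrays. Of the 10 endothelial markers, 6 were tested, 5 of them lower with a median of -0.20. Their summed level was 8.23 to 8.63 on transgenic and 8.24 to 8.69 on control arrays, and Tie1, Cldn5 and Robo4 stayed under 4 on every array. Of 9 squamous markers on the array, 3 were tested, all higher, with a summed level of 8.65 to 14.45 on transgenic and 7.33 to 8.66 on control arrays. The part of these markers in the collagen differences was not tested.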

How the data were processed

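Total RNA was extracted with Trizol, labelled with biotin and hybridised to Affymetrix arrays, per the labels' protocols. The deposited values are log2 expression values per probe set made by the authors with GCRMA, per the submitters' processing notes. The sources used here name neither its version nor a genome build. That values are log2 follows from their range, and array medians ran from 3.31 to 3.36. The values were used as deposited.

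Gene names came from the platform annotation: 34958 of 45101 probe sets had 1 symbol, 932 several and 9211 none. RefSeq (GRCm38.p6) was used for names, neighbouring genes and promoter windows. Groups followed the titles. Of the probe sets, 19310 had at least 4 on at least 3 of 6 arrays and were tested with limma 3.58.1 in R 4.3.3 (lmFit, eBayes), with 64 AFFX control probe sets left out and Benjamini-Hochberg adjustment over all. The number of arrays limits the precision. A fold against a group under 4 on all its arrays was computed with values under 4 set to 4. The procedure was tested on simulated data.

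The members and lists were chosen with earlier results of these data known. Values on every array are given for genes with non-overlapping groups or an unadjusted p under 0.05, the 3 brightest genes per class, the chains of types I, III, IV, V, VI, XV and XVIII and genes with a range of at least 4. From each partner list up to 4 genes with the smallest unadjusted p are named. Krt5, Krtdap, Trp63, Des, Pdgfra, Postn, Lama5, Ddr1 and a few untested genes were named after their values were seen. Alternatives were other filters, normalizations, variance settings, array weights, values under 4 set to 4, the replicate number as a block, no X- and Y-linked genes, the mean of a gene's probe sets, an adjusted p threshold of 0.1 and leaving out each array.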

Additional observations from a re-analysis of the deposited data

How the results depend on the processing

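The count of collagen genes at an adjusted p under 0.05 with limma was 0 in every alternative run, also at a threshold of 0.1, and the smallest adjusted p of a tested collagen gene in any of them was 0.213. At an unadjusted p under 0.05 the count of 5 became 2 with the stricter filter at 6, and leaving out 1 array gave 3 to 8. The count of 8 genes with non-overlapping groups became 5 with the stricter filter at 6 and 5 with the mean of a gene's kept probe sets. When any 1 array was dropped, between 7 and 12 genes had groups that did not overlap. Smaller groups separate more easily by chance, and the matching shares of all probe sets are not given here. A count above 8 among these is therefore no sign of clearer separation. The median difference of the basement membrane collagens (-0.80) was -0.15 with no filter, where all 8 chains enter. It was -0.27 with the stricter filter and -0.27 once genes named on X and Y were dropped, and both of these remove Col4a5. Leaving out 1 array gave -0.89 to -0.62. The median of the other collagens (-0.89) was -0.047 with no filter, where all 23 genes enter, and ran from -1.07 to -0.42 with 1 array left out. The fibrillar median (-0.43) ran from -0.88 to -0.24 with 1 array left out. Of the values of single genes under the alternatives, 300 kept their sign and 0 passed an adjusted p of 0.05. The 10 that changed sign belonged to 3 genes: Col5a3 was 0.023 with quantile normalization, 0.0066 with median centring and 0.093 with array weights, and with 1 array left out Col5a3 ran from -0.26 to 0.19, Col1a1 from -1.01 to 0.46 and Col12a1 from -0.32 to 0.46. The cause was not tested. With the replicate block, the count at an unadjusted p under 0.05 was 6 and every difference was as without it. Same-numbered arrays did not deviate together (correlations of -0.27, -0.28 and -0.05). With deviations from means of 3 arrays, this cannot show whether they share more than a number.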
